A study of Mus musculus with 12 samples.

Results

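Wnt ligands, their frizzled receptors and the secreted proteins that restrain them were followed across 12 Affymetrix mouse arrays of skin and cultured skin cells. Members were the probe sets whose single platform gene symbol was Wnt, Fzd, Sfrp or Dkk followed by a number, or Wif1, Frzb, Lef1 or Axin2. The rule took 58 of 22690 probe sets, which stand for 40 of 12393 genes. Of these, 23 probe sets measured 19 ligands, 17 measured 9 frizzled receptors, 15 measured 10 secreted inhibitors and 3 measured Lef1 and Axin2, a nuclear effector and a target of the pathway. A single probe set measured 27 of the genes and several probe sets measured the other 13. Of the 41 family genes that RefSeq lists, Fzd10 was not analysed here.

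The study set skin tissue against cultured keratinocytes, the epithelial cells of the epidermis, and newborn against older mice. There were 5 primary cultures from newborn mice, each made from the pooled cells of 5 mice and kept for at most 3 days, without passage, in medium with little calcium, which holds keratinocytes in a basal, proliferating state. Cultures 1 and 2 came from mice of a mixed C57, DBA and FVB background, and cultures 3, 4 and 5 from FVB mice, an albino inbred strain. Skin came from FVB newborns (2 samples, age in days not given) and from mice of the mixed background aged 30 days (5 samples), so strain and age cannot be told apart within skin. The labels name no transgene or treatment. Whether each skin sample came from its own animal is not in the labels, so the p-values reflect how far these particular samples vary, and part of that variation may be technical. All values are log2 signals made by RMA, which corrects background, equalises the arrays' distributions and summarises the probes of each set.

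Wnt proteins are lipid-modified signals that bind a frizzled receptor together with the co-receptors Lrp5 and Lrp6. In the canonical branch this binding stabilises beta-catenin, which enters the nucleus and works with Lef1 and the Tcf proteins on target genes such as Axin2, itself a brake on the pathway. Secreted frizzled-related proteins (Sfrp genes and Frzb) and Wif1 bind the ligands outside the cell, and Dkk1, Dkk2 and Dkk4 act on the co-receptors. In skin the pathway is best known for the formation and cycling of hair follicles, where signals pass between the epidermis and the dermis beneath it.

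Skin and cultures differed in their cell types, which touches every comparison between them. Averaged over each list, 6 dermal fibroblast markers lay at 5.32 to 5.76 in cultures, 10.91 to 10.96 in newborn skin and 10.06 to 10.61 in 30-day skin, and 6 of 6 were lower in culture. The 7 hair matrix and shaft markers lay at 5.12 to 5.24, 9.36 to 9.39 and 10.29 to 10.67 in the same order, with 7 of 7 lower in culture. The 5 basal keratinocyte markers averaged 10.45 to 10.87 in cultures and 9.59 to 9.88 in skin, with 3 of 5 higher in culture. In bulk RNA, fewer cells of a type and less RNA per cell cannot be told apart. In replicate 1 of 30-day skin the 3′ actin control probe set exceeded the 5′ one by 1.74, while the 4 remaining 30-day arrays gave 0.67 to 0.82. Some arrays of a group correlated above 0.99 over all probe sets: cultures 1 and 2, cultures 3 and 4, both newborn skins, 30-day replicates 2 and 3, and 30-day replicates 4 and 5. Results that rest on them were repeated with such arrays averaged.

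Promoter windows from the RefSeq table (GRCm38.p6) matched 28 of the 40 genes by symbol, and 10 of the 16 genes whose values are given array by array below. The windows shown belong to a pair of ligands higher in culture (Wnt7a, Wnt4) and to genes lower in culture from each role: a ligand (Wnt11), a frizzled (Fzd4), a pair of inhibitors (Sfrp2, Wif1) and a target (Axin2). Each holds the 250 bases before an annotated start of transcription, read 5′ to 3′ on the gene's strand. They lie at chr6:91411354-91411603 on the minus strand (Wnt7a) and, on the plus strand, at chr4:137277385-137277634 (Wnt4), chr7:98834862-98835111 (Wnt11, the more upstream of its starts), chr7:89404116-89404365 (Fzd4), chr3:83766071-83766320 (Sfrp2), chr10:121033754-121034003 (Wif1) and chr11:108920099-108920348 (Axin2). Capitals mark a match to a Tcf and Lef word.
Wnt7a: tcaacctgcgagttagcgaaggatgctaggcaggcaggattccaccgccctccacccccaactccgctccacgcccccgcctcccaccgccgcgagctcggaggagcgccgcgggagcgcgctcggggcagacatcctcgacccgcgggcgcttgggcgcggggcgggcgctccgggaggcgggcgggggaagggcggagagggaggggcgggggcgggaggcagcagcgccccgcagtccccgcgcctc
Wnt4: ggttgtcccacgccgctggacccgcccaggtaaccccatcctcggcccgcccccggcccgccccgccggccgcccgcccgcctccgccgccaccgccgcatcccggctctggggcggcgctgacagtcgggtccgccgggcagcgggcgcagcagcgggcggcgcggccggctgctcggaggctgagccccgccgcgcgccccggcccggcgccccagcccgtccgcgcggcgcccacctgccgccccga
Wnt11: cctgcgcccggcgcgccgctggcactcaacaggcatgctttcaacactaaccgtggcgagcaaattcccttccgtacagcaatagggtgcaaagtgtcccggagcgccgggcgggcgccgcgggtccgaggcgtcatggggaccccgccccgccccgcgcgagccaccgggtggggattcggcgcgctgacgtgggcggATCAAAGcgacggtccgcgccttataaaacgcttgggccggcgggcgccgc
Fzd4: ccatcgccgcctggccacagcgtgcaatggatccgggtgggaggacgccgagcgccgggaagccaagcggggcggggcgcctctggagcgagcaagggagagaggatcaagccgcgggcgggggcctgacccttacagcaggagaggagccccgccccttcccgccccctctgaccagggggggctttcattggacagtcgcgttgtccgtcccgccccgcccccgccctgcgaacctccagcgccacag
Sfrp2: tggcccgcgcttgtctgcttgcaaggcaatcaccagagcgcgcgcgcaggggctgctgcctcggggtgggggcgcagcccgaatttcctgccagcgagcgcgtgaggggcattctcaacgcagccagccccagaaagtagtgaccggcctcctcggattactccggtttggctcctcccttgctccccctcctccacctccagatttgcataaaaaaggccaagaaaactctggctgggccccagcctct
Wif1: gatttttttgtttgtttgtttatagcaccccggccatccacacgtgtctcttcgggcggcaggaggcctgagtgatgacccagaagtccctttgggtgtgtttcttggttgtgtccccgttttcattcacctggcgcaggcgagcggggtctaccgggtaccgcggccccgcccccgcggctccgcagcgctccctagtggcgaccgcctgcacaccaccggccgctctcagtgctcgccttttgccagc
Axin2: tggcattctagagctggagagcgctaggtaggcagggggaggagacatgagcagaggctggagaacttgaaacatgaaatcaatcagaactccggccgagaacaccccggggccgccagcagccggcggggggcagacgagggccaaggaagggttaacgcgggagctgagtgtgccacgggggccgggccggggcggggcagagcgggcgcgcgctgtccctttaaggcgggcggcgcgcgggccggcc

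All 7 windows were rich in G and C, at 77.6% (Wnt7a), 85.2% (Wnt4), 70.8% (Wnt11), 72.8% (Fzd4), 63.6% (Sfrp2), 62.8% (Wif1) and 69.2% (Axin2), against a median of 52.4% over the table's 32851 windows. The search used the word CTTTGAA, the word CTTTGAT, the word CTTTGTA and the word CTTTGTT, on both strands. Of the windows shown, that of Wnt11 held a match, ATCAAAG, ending 44 bases before the start. A Lef1 window beside a different start, not shown, held TACAAAG, ending 140 bases before it. Matches occurred in 2 of 14 windows of the genes described below (14.3%), in 5 of 34 windows of all members (14.7%) and in 14.8% of all windows. A match is a description of letters, and its absence from 250 bases says only that the words are not in this window.

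Set against the equally weighted mean of newborn and 30-day skin, the Wnt genes were more often lower than higher in culture. At an adjusted p under 0.05, 31 of 58 probe sets were lower and 10 were higher, or 70.7%, where 42.5% of all 22626 probe sets tested were called, 18.3% lower and 24.3% higher. A call with a log2 difference of at least 1 was made for 16 of 58, 11 lower and 5 higher, against 10.4% of all probe sets. The median difference was -0.26 over the members and 0.03 over all probe sets. By the brightest probe set of each gene, 22 of 40 genes were lower and 8 higher. A fit with 1 probe set a gene gave the same counts, where 22.4% of all genes were lower and 24.6% higher. Arrays of cultures and skin did not overlap for 24 probe sets lower and 9 higher, against 11.1% and 14.6% of all probe sets. Centring each array on its median, which moved the median of all probe sets from 0.03 to 0.11, gave 28 members lower and 15 higher, where 15.5% of all probe sets were lower and 30.6% higher. Centring on epithelial junction genes gave 42 members lower and 7 higher, but it moved the median of all probe sets to -0.38, and 57.7% of them were lower and 8.20% higher.

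Against newborn skin alone, 23 probe sets were lower and 9 higher in culture (background 32.3% called, 14.7% lower and 17.6% higher). Against 30-day skin, 28 were lower and 10 higher (background 43.3% called, 18.2% lower and 25.1% higher). Both comparisons use the same 5 cultures. Strain could be held constant in each: the 3 FVB cultures against FVB newborn skin gave 25 lower and 9 higher (14.8% and 19.6% of all probe sets), and the 2 mixed-strain cultures against mixed-strain 30-day skin gave 24 lower and 11 higher (16.2% and 21.4%). Centring on epithelial junction genes moved the count against newborn skin to 46 lower and 4 higher, where 66.3% of all probe sets were lower and 3.99% higher, with a median of -0.58. Against 30-day skin it gave 32 lower and 8 higher (25.7% and 13.4% of all), and median centring gave 24 lower and 14 higher (14.9% and 31.9%). With arrays that correlated above 0.99 averaged, the count against newborn skin was 17 lower and 3 higher (8.13% and 7.04% of all probe sets).

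**Figure D1:**
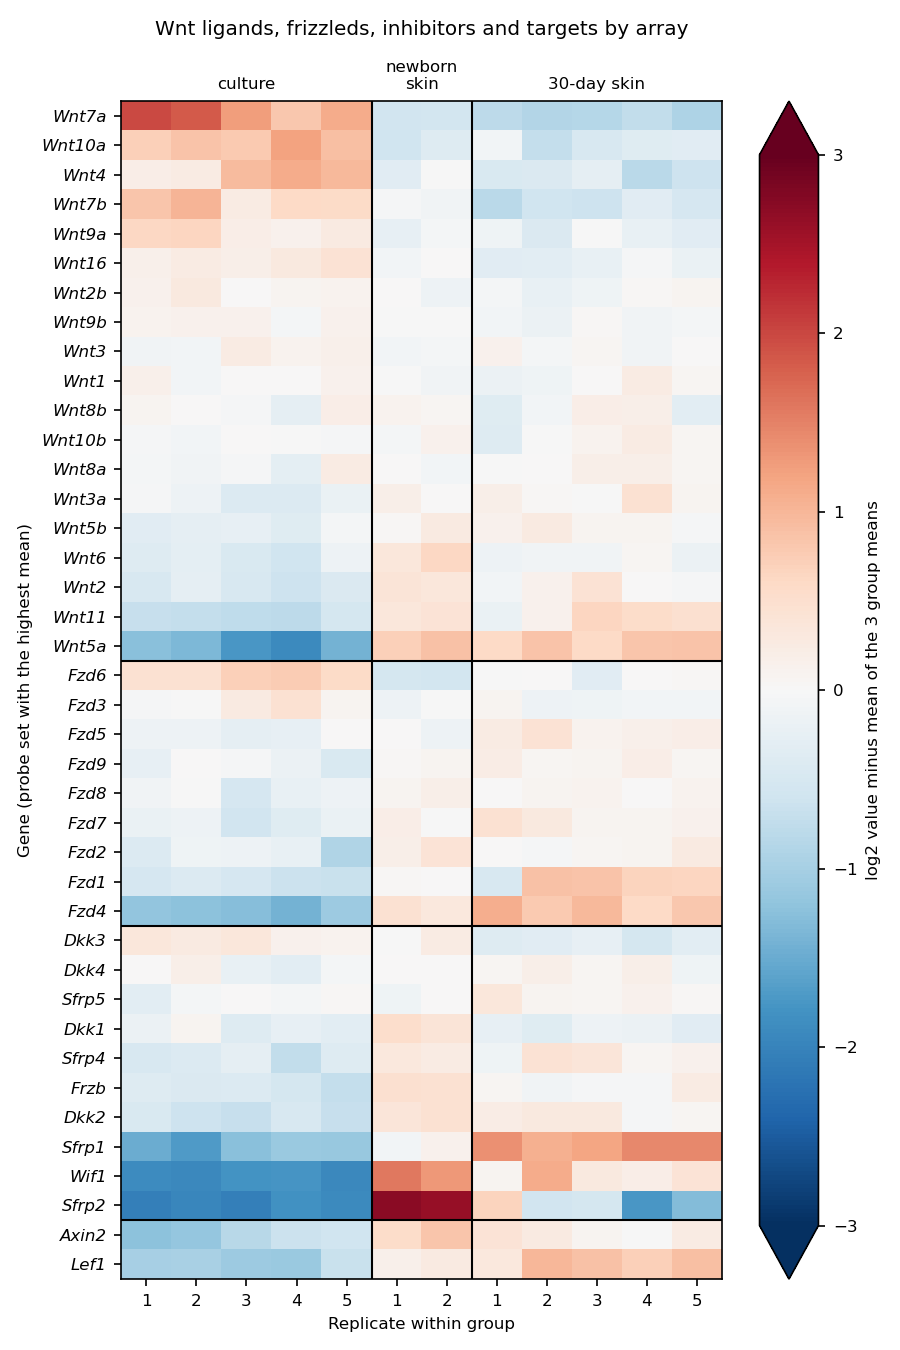
Log2 value of each of the 40 genes (rows, brightest probe set of each gene, grouped by role) in each of the 12 arrays (columns), shown as the distance from the mean of the 3 group means, from blue (lower) to red (higher). Wnt7a, Wnt10a, Wnt4 and Wnt7b stand out as higher in the 5 cultures, and Sfrp2, Wif1, Wnt5a and Fzd4 as lower.

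Among ligands, calls fell about evenly on both sides. Of 23 probe sets, 7 were higher and 8 lower in culture than in skin (6 and 6 of 19 genes). Over all probe sets, 24.3% were higher and 18.3% lower, and with 1 probe set a gene 24.6% and 22.4% of all genes. The median difference of the ligands was -0.01. Centring on epithelial junction genes, under which 57.7% of all probe sets were lower, gave 5 higher and 13 lower. Ligands higher in culture included Wnt7a, Wnt10a, Wnt4 and Wnt7b. The ligand with the largest difference in the other direction was Wnt5a, known for signalling that does not pass through beta-catenin.

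Wnt7a measured 8.07, 7.92, 7.34, 6.89 and 7.20 in cultures 1 to 5. It measured 5.50 and 5.53 in newborn skin and 5.30, 5.21, 5.23, 5.35 and 5.17 in 30-day skin. Every culture lay above every skin sample, and the lowest culture exceeded the highest skin value by more than the spread of either skin group. The mean in culture, 7.48 ± 0.50 (SD, n = 5), was 2.10 ± 0.18 (SE) above skin, a 4.29-fold difference (adjusted p = 4.05e-07), the largest rise among the members.

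Wnt10a, a ligand of skin and its appendages, measured 8.23, 8.39, 8.31, 8.72 and 8.41 in cultures, 6.93 and 7.12 in newborn skin, and 7.44, 6.82, 7.03, 7.17 and 7.17 in 30-day skin. Its groups did not overlap, and its difference of 1.34 ± 0.12 (SE) was nearly the same against newborn skin (1.39) as against 30-day skin (1.29). The gene next to it in RefSeq's order of protein-coding genes is Wnt6, another ligand. Wnt6 fell below skin by 0.57 ± 0.09 (SE, adjusted p = 0.000222), with cultures at 5.78 to 6.24, newborn skin at 6.72 and 7.0, and 30-day skin at 6.20 to 6.45. The other neighbours of this kind that had calls, Wnt3a and Wnt9a, also lay on opposite sides, at -0.36 and 0.56.

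Wnt4 measured 8.95, 9.01, 9.71, 9.88 and 9.73 in cultures, 8.43 and 8.75 in newborn skin, and 8.30, 8.33, 8.50, 7.97 and 8.15 in 30-day skin. The FVB cultures were the higher ones, and all 5 cultures exceeded all skin samples. The difference from skin was 1.04 ± 0.18 (SE, 2.05-fold, adjusted p = 0.000268). Against newborn skin it was 0.87 ± 0.24 (adjusted p = 0.0127), and this call was lost without newborn replicate 1 (0.71, adjusted p = 0.154), with arrays averaged (adjusted p = 0.102) and with arrays centred on epithelial junction genes (0.25, adjusted p = 0.415).

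Wnt7b, a close relative of Wnt7a, was measured by 2 probe sets that gave the same direction. The brighter one read 8.66, 8.85, 8.09, 8.45 and 8.42 in cultures, 7.79 and 7.72 in newborn skin, and 7.04, 7.24, 7.22, 7.49 and 7.33 in 30-day skin. Its groups did not overlap, with a difference from skin of 0.98 ± 0.12 (SE, 1.98-fold, adjusted p = 2.08e-05), and the dimmer one differed by 1.07 ± 0.20. Against newborn skin the brighter one differed by 0.74 (adjusted p = 0.00418), a call lost with arrays averaged (adjusted p = 0.0751), without newborn replicate 2 (adjusted p = 0.0504) and after centring on epithelial junction genes (0.11, adjusted p = 0.573).

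Wnt5a measured 5.08, 5.0, 4.59, 4.43 and 4.93 in cultures. In newborn skin it measured 7.05 and 7.23, and in 30-day skin 6.94, 7.21, 6.94, 7.17 and 7.21. Skin samples of both ages lay close together, far above every culture. The difference of -2.31 ± 0.12 (SE) was 4.95-fold (adjusted p = 3.39e-09), and the second probe set gave -2.52 ± 0.19. Wnt11, also known mainly for signalling outside the beta-catenin branch, measured 6.28, 6.26, 6.23, 6.18 and 6.44 in cultures, 7.32 and 7.39 in newborn skin, and 6.79, 7.12, 7.62, 7.53 and 7.45 in 30-day skin. All cultures were below all skin samples, with a difference of -1.05 ± 0.13 (2.07-fold, adjusted p = 2.03e-05). Dermal fibroblast markers, all lower in culture as given above, moved with both genes, and their part in these differences was not tested.

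The other ligands differed less. Wnt9a (0.56) and Wnt16 (0.39) were higher in culture than in skin, and Wnt2 (-0.68), Wnt6, Wnt5b (-0.38) and Wnt3a (-0.36) were lower. No probe set was called in any of the 4 comparisons of cultures and skin for Wnt1, Wnt2b, Wnt3, Wnt8a, Wnt8b, Wnt9b and Wnt10b, nor for the inhibitors Dkk4 and Sfrp5. Over the 10 probe sets of these 9 genes, differences ran from -0.21 to 0.20. Of the 58 member probe sets, 27 lay in the dimmest 40% of all probe sets. RMA values carry no detection call, so a small difference there does not show that a gene was absent.

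**Figure D2:**
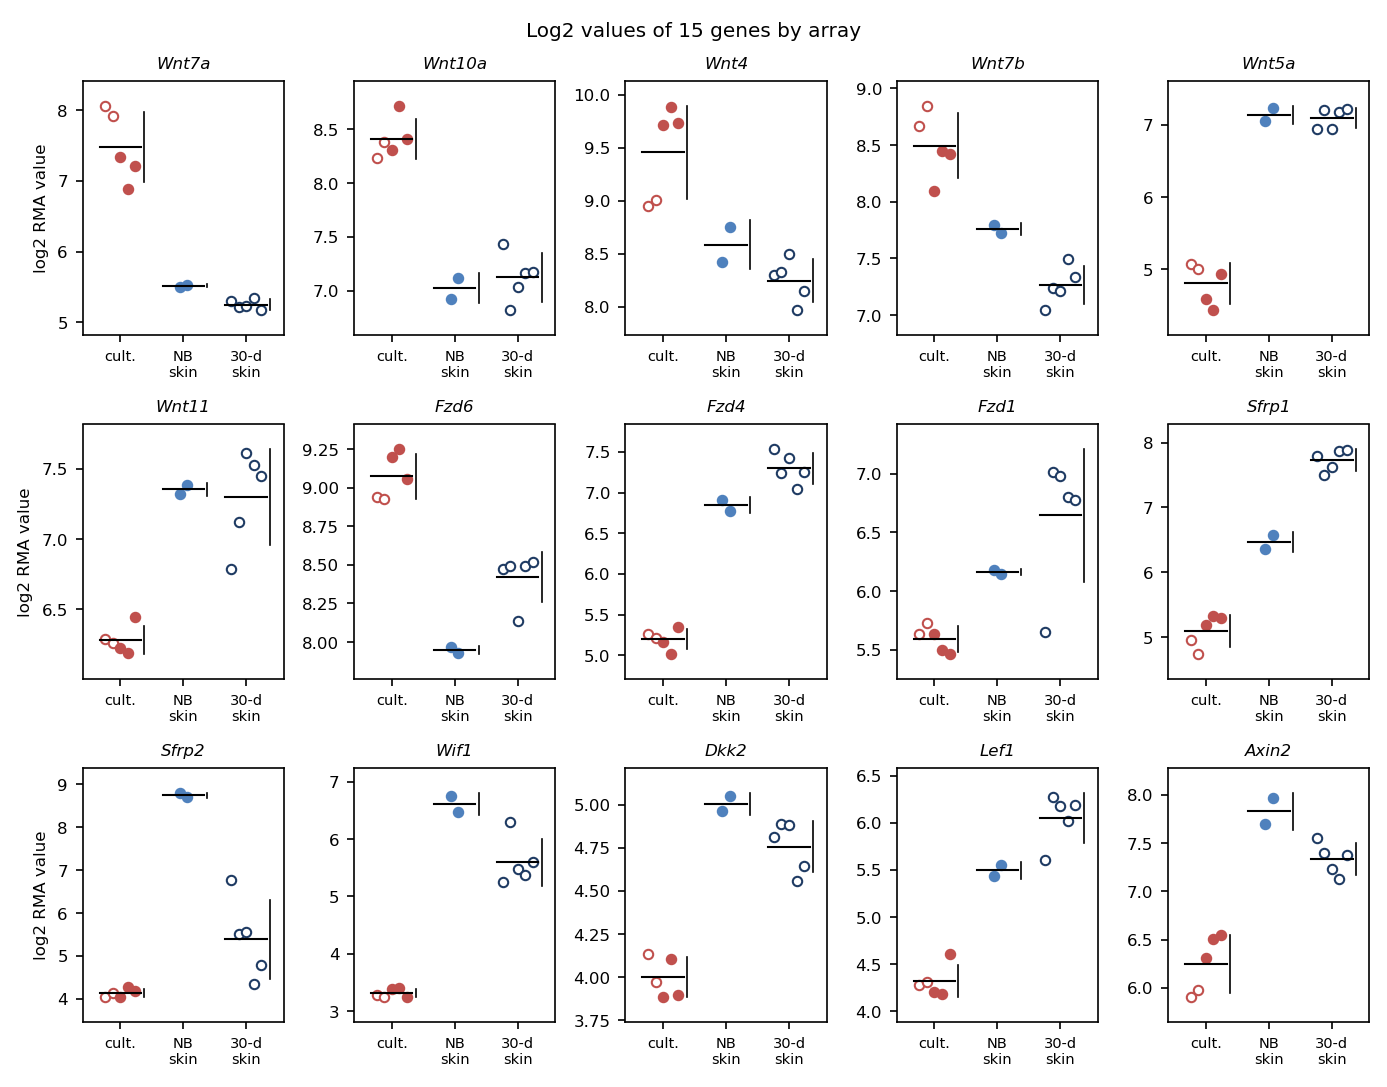
Log2 RMA value per array of 15 genes in cultures, newborn skin and 30-day skin, each panel with its own axis. Open circles are mixed-strain samples and filled circles FVB samples, horizontal bars are group means and vertical lines beside them span 1 SD to each side. Wnt7a in culture (6.89 to 8.07) lies wholly above skin (5.17 to 5.53), Wif1 in culture (3.25 to 3.41) wholly below it (5.25 to 6.75), and for Fzd1 the 30-day replicate 1 (5.65) falls among the cultures.

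Among frizzled receptors, more were lower than higher in culture when both skins were averaged, and less clearly so against newborn skin. Of 17 probe sets, 10 were lower and 2 higher than in skin, or 70.6% against 42.5% of all probe sets, and both higher ones belonged to Fzd6. By gene, 7 of 9 were lower and 1 higher, where 22.4% and 24.6% of all genes were with 1 probe set a gene. The median difference was -0.24. Against newborn skin 5 were lower, 3 higher and 9 not called (3 lower and 1 higher of 9 genes). Over all probe sets, 14.7% were lower and 17.6% higher, and with 1 probe set a gene 18.6% and 17.9% of all genes. Median centring turned the frizzled count to 4 lower and 5 higher (12.9% and 21.2% of all probe sets). Against 30-day skin 9 were lower and 2 higher (18.2% and 25.1% of all). The balance against both skins also depended on scaling. Median centring gave 7 lower and 5 higher (15.5% and 30.6% of all probe sets). A second quantile normalisation gave 8 and 5 (18.2% and 25.0%). Centring on epithelial junction genes gave 12 and 2, where 57.7% of all probe sets were lower and 8.20% higher.

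Fzd6, which in mouse skin is known for orienting hairs, measured 8.94, 8.93, 9.20, 9.25 and 9.05 in cultures, 7.97 and 7.93 in newborn skin, and 8.48, 8.49, 8.14, 8.49 and 8.52 in 30-day skin. The 3 groups were separate, with newborn skin lowest and cultures highest. Culture exceeded skin by 0.89 ± 0.09 (SE, 1.85-fold, adjusted p = 3.35e-06), and a second probe set gave 1.08 ± 0.21.

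Fzd4, a receptor that also binds norrin and is prominent in blood vessels, was the frizzled with the largest difference. It measured 5.26, 5.21, 5.16, 5.02 and 5.35 in cultures, 6.91 and 6.77 in newborn skin, and 7.54, 7.24, 7.42, 7.04 and 7.25 in 30-day skin. No culture came within 1 unit of any skin sample, and the difference was -1.87 ± 0.10 (SE, 3.66-fold, adjusted p = 2.81e-09). Its second probe set, among the dimmest 10% in every group, gave -0.24 ± 0.06. The 5 endothelial markers averaged 4.73 to 5.02 in cultures, 6.64 to 6.71 in newborn skin and 5.89 to 6.05 in 30-day skin, and 5 of 5 were lower in culture. Their part in the Fzd4 difference was not tested.

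Fzd1 measured 5.64, 5.73, 5.64, 5.50 and 5.47 in cultures, 6.18 and 6.14 in newborn skin, and 5.65, 7.01, 6.99, 6.80 and 6.78 in 30-day skin. Replicate 1 of 30-day skin, whose actin control stood apart, lay among the cultures and more than 1 unit below its own group. Against 30-day skin the difference was -1.05 ± 0.21 (SE, adjusted p = 0.000914) with that array and -1.30 (adjusted p = 5.99e-08) without it. Against newborn skin it was -0.57 and missed the threshold (adjusted p = 0.141), but passed it without 30-day replicate 1 (-0.57, adjusted p = 0.00096). With arrays averaged, the call against 30-day skin was lost (-0.91, adjusted p = 0.0693).

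Fzd2 was lower in culture by all 3 of its probe sets, at -0.55 ± 0.13, -0.52 ± 0.08 and -1.07 ± 0.13 (SE). The third, 1418534_at, read 6.13, 6.16, 6.25, 6.36 and 6.07 in cultures, 7.22 and 7.18 in newborn skin, and 7.79, 7.13, 7.01, 7.21 and 7.46 in 30-day skin, with no overlap. For the brightest, 1418532_at, the call against 30-day skin was lost with median centring (-0.36, adjusted p = 0.0508). It was also lost among mixed-strain samples (-0.35, adjusted p = 0.144), where 1418533_s_at was not called either (-0.13, adjusted p = 0.44). With arrays averaged, 1418532_at lost its calls against 30-day (-0.52) and newborn skin (-0.75). The newborn call was also lost without newborn replicate 2 (-0.54). Fzd5 (-0.24), Fzd7 (-0.45), Fzd8 (-0.29) and Fzd9 (-0.28) were lower by their brightest probe set, while a dimmer Fzd7 probe set read 0.24 and missed the threshold (adjusted p = 0.0661). Fzd3 was not called against skin as a whole by any of its 4 probe sets, which read 0.07 to 0.23.

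**Figure D3:**
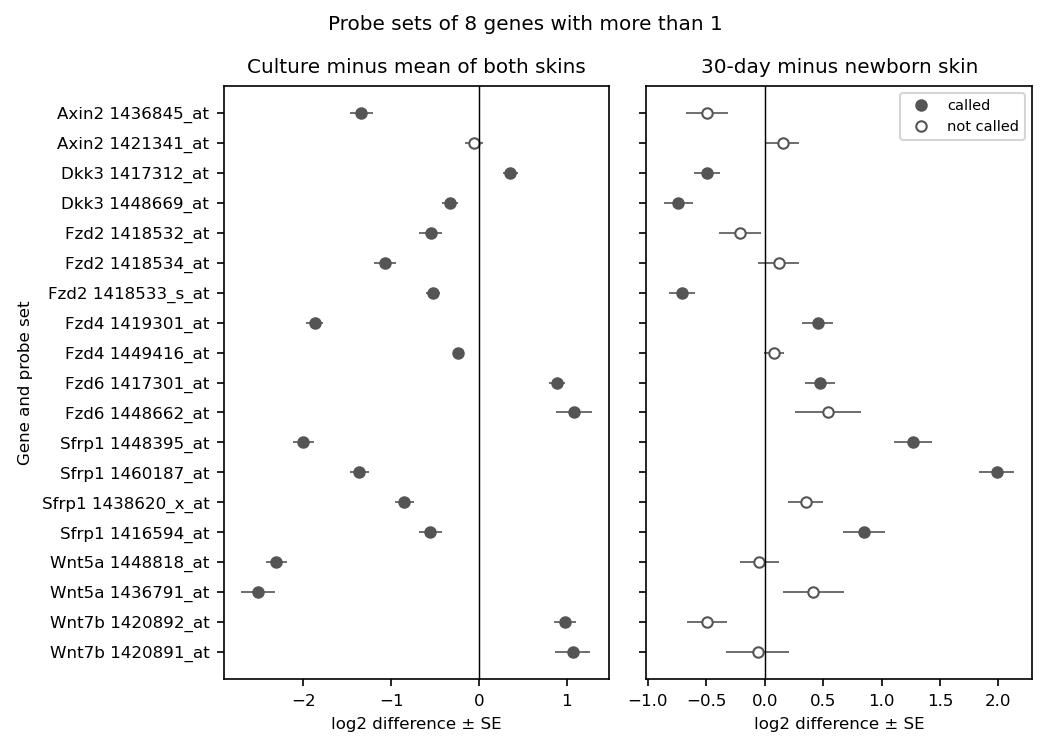
Log2 difference with its standard error for each probe set of 8 genes measured by several, as culture minus the mean of both skins (left) and 30-day minus newborn skin (right); filled points had an adjusted p under 0.05. Probe sets of Wnt5a, Wnt7b, Fzd6, Fzd2 and Sfrp1 agree in direction on the left, those of Dkk3 lie on opposite sides (0.36 and -0.33), and only 1 of 2 for Axin2 was called.

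The secreted inhibitors that were called were nearly all lower in culture. Of 15 probe sets, 11 were lower and 1 higher in culture than in skin (7 and 1 of 10 genes), with a median difference of -0.68. Over all probe sets, 18.3% were lower and 24.3% higher, and with 1 probe set a gene 22.4% and 24.6% of all genes. Under median centring and a second quantile normalisation the counts were again 11 and 1 (15.5% and 30.6%, and 18.2% and 25.0%, of all probe sets). Centring on epithelial junction genes gave 14 lower and 0 higher, but there 57.7% of all probe sets were lower and 8.20% higher. The 1 probe set that was higher belongs to Dkk3, the most divergent Dkk protein.

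Sfrp2, a frizzled-related protein made by dermal cells, measured 4.05, 4.14, 4.03, 4.27 and 4.18 in cultures and 8.79 and 8.70 in newborn skin. In 30-day skin it measured 6.77, 5.51, 5.56, 4.35 and 4.79. The 3 groups did not overlap, but 30-day skin spread over more than 2 units: replicate 1 was highest, replicates 2 and 3 were intermediate and replicates 4 and 5 came close to the cultures. Culture was 24.3-fold lower than newborn skin by RMA values (-4.61 ± 0.43, SE, adjusted p = 2.02e-06). Against 30-day skin the difference was -1.26 ± 0.33 (2.39-fold, adjusted p = 0.00616), and -0.91 without 30-day replicate 1 (adjusted p = 0.00268). Among all probe sets, the cultures' mean lay at percentile 6.1. RMA does not show whether so low a value is above background, so these folds against culture are read as lower bounds of the difference in RNA.

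Wif1, which binds Wnt proteins outside the cell, measured 3.29, 3.25, 3.39, 3.41 and 3.25 in cultures. It measured 6.75 and 6.47 in newborn skin and 5.25, 6.30, 5.47, 5.38 and 5.60 in 30-day skin. All cultures lay near the lowest values of the array, with their mean at percentile 0.3, and well below all skin samples. The difference from skin was -2.79 ± 0.16 (SE, adjusted p = 5.91e-09), and its 6.90-fold size is likewise read as a lower bound.

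Sfrp1 was measured by 4 probe sets, all lower in culture, at -2.0 ± 0.12, -1.36 ± 0.11, -0.85 ± 0.11 and -0.56 ± 0.13 (SE). The brightest read 4.95, 4.74, 5.18, 5.32 and 5.30 in cultures, 6.36 and 6.57 in newborn skin, and 7.79, 7.51, 7.62, 7.87 and 7.88 in 30-day skin. Its 3 groups were separate and stepped up by more than 1 unit each. Against newborn skin alone the probe sets split: 1448395_at (-1.37) and 1438620_x_at (-0.67) were called, while 1460187_at (-0.37) and 1416594_at (-0.13) were not. The means of 1460187_at lay at percentile 2.5 in cultures and 6.7 in newborn skin, so its small difference there says little.

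Dkk2, an antagonist of the co-receptors, measured 4.13, 3.97, 3.88, 4.11 and 3.90 in cultures, 4.96 and 5.05 in newborn skin, and 4.81, 4.89, 4.88, 4.56 and 4.64 in 30-day skin. Cultures stayed below skin throughout, by -0.88 ± 0.09 (SE, adjusted p = 1.72e-06), with the cultures' mean at percentile 4.4 and the same limit on its size. Frzb (-0.74), Sfrp4 (-0.68) and Dkk1 (-0.32) were also lower than skin. For Dkk1, cultures (4.75 to 5.22) differed from newborn skin (5.53 and 5.66) by -0.67 but not detectably from 30-day skin (4.76 to 4.98), at 0.04 (adjusted p = 0.753). The 2 Dkk3 probe sets disagreed, at 0.36 and -0.33, so no direction is given for Dkk3.

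Lef1 and Axin2 were both lower in culture. Lef1, the nuclear partner of beta-catenin in the hair matrix and elsewhere, measured 4.28, 4.32, 4.21, 4.18 and 4.61 in cultures, 5.43 and 5.56 in newborn skin, and 5.60, 6.27, 6.18, 6.01 and 6.19 in 30-day skin. Each culture was below each skin sample, by -1.45 ± 0.12 on average (SE, 2.74-fold, adjusted p = 3.91e-07). The cultures' mean of Lef1 lay at percentile 9.2, so this fold too is read as a lower bound. Axin2, a widely used readout of canonical signalling, measured 5.90, 5.98, 6.31, 6.50 and 6.55 in cultures, 7.70 and 7.97 in newborn skin, and 7.56, 7.40, 7.23, 7.13 and 7.38 in 30-day skin. It too was without overlap, at -1.34 ± 0.13 (2.53-fold, adjusted p = 1.82e-06). A second, dimmer Axin2 probe set read -0.06 ± 0.10 and was not called (adjusted p = 0.711), so the Axin2 difference rests on 1 probe set. Hair matrix markers, lower in culture by a median of -5.83 (7 of 7), moved with Lef1 and Axin2, and their part was not tested.

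**Figure D4:**
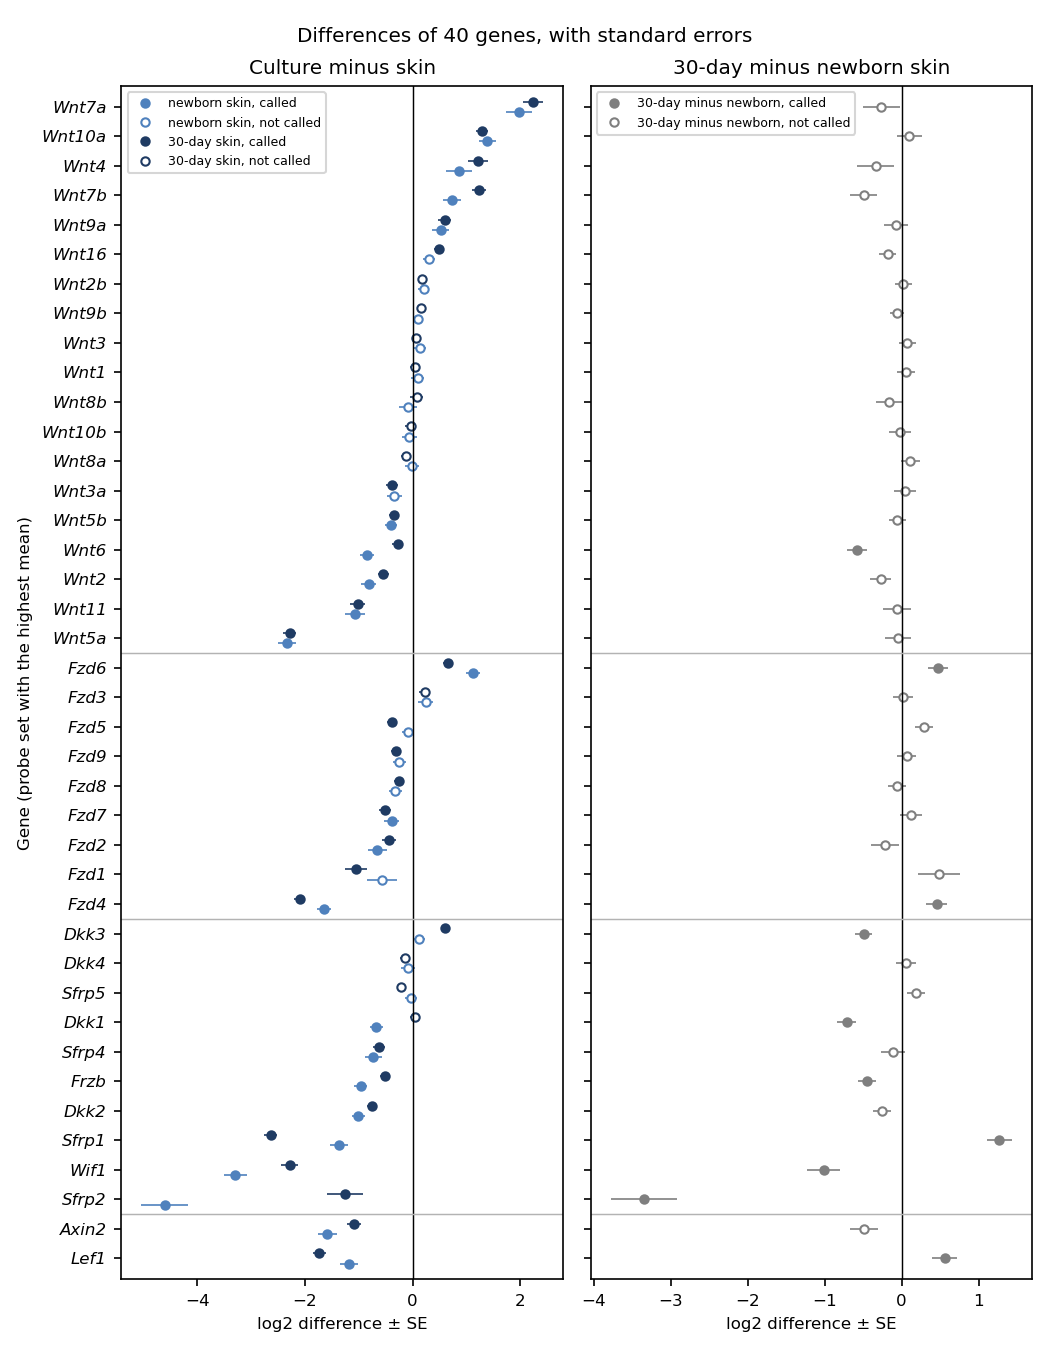
Log2 differences with standard errors for the 40 genes (brightest probe set of each): culture against newborn skin and against 30-day skin (left), and 30-day against newborn skin (right). Filled points had an adjusted p under 0.05; inhibitors and targets lie mainly left of 0 in culture, and on the right Sfrp2 (-3.35) and Sfrp1 (1.27) lie far apart.

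Between newborn and 30-day skin, secreted inhibitors changed in both directions. At an adjusted p under 0.05, 7 member probe sets were higher and 8 lower at 30 days (25.9%, where 12.1% of all probe sets were called, 4.75% higher and 7.36% lower). Inhibitors made up 3 of those higher and 6 of those lower, out of 15. Among ligands, 1 of 23 probe sets was called (Wnt6), and among frizzleds 3 were higher and 1 lower of 17. These counts changed with centring on epithelial junction genes. It gave 0 higher and 11 lower for ligands, 0 and 4 for frizzleds, and 3 and 8 for inhibitors. Newborn skin has 2 arrays: leaving out replicate 1 left 8 calls (4.98% of all probe sets) and leaving out replicate 2 left 6 (3.70%). Averaging the similar arrays left 2, both higher and both of Sfrp1 (1.24% of all probe sets). Centring on epithelial junction genes gave 3 higher and 24 lower, near the share over all probe sets, of which 1.48% were higher and 37.5% lower. Strain differs along with age here and cannot be told apart from it.

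Sfrp2 fell by 3.35 ± 0.43 (SE) from newborn to 30-day skin, a 10.2-fold difference (adjusted p = 0.000213), and the highest 30-day value (6.77) stayed below the lowest newborn one (8.70). Without 30-day replicate 1 it fell by 3.69 (adjusted p = 1.42e-06), and with arrays averaged by 3.12 with the call lost (adjusted p = 0.0875). Sfrp1, of the same protein family, went the other way: its brightest probe set rose by 1.27 ± 0.16 (2.41-fold, adjusted p = 0.00019) and 1460187_at by 1.98 ± 0.15 (3.96-fold, adjusted p = 2.47e-06). The latter read 4.13 and 4.19 in newborn skin and 6.13, 6.54, 6.24, 5.80 and 6.01 at 30 days. Its newborn mean lay at percentile 6.7, so its fold is read as a lower bound. Both rises kept their call with arrays averaged (adjusted p = 0.0437 and 0.00543). The third Sfrp1 probe set rose by 0.85 (adjusted p = 0.00753) and the fourth differed by 0.35 without passing (adjusted p = 0.154).

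Wif1 fell by 1.01 ± 0.21 from newborn to 30-day skin (SE, 2.02-fold, adjusted p = 0.00704), with 30-day replicate 2 (6.30) close to the newborn samples and the other 4 between 5.25 and 5.60. This call was lost without newborn replicate 1 (-0.87) and with arrays averaged (-1.07). It was also lost with strain as a covariate (-0.93, adjusted p = 0.0922) and with replicate number as a block (-0.95, adjusted p = 0.0583). Dkk1 fell by 0.72 ± 0.12 (adjusted p = 0.00205), Frzb by 0.45 ± 0.12 (adjusted p = 0.0242), and both Dkk3 probe sets fell, by 0.49 and 0.74. For Dkk1 the groups were separate, at 5.53 and 5.66 against 4.76 to 4.98.

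Among receptors and effectors the differences with age were smaller. Fzd6 rose by 0.48, Fzd4 by 0.45 and Lef1 by 0.56, at adjusted p of 0.0267, 0.0399 and 0.0455. Each of these calls was lost without either newborn sample, with arrays averaged, and in some fits that left out 1 other array. Centring on epithelial junction genes brought the differences to 0.06, 0.03 and 0.14, and those calls were lost too. With strain as a covariate, Fzd4 (adjusted p = 0.276) and Lef1 (0.188) lost their calls. With replicate number as a block, Fzd6 (0.136) and Lef1 (0.117) did. A second quantile normalisation also lost the Lef1 call (0.0535). The Fzd3 probe set 1449730_s_at rose by 0.45 and an Fzd2 probe set, 1418533_s_at, fell by 0.71, while the other probe sets of both genes were not called. Fzd1 differed by 0.48 and was not called (adjusted p = 0.308), but rose by 0.73 without 30-day replicate 1 (adjusted p = 0.000627), and so did the second Fzd6 probe set, by 0.77 (adjusted p = 0.00464). Axin2 differed by -0.49 without passing (adjusted p = 0.0993).

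Marker lists moved with these age differences. The 7 dermal papilla markers averaged 6.22 to 6.34 in newborn and 5.31 to 5.55 in 30-day skin, with 4 of 7 lower at 30 days and none higher. Of 6 dermal fibroblast markers, 3 were lower and none higher. All 7 hair matrix and shaft markers were higher at 30 days, by a median of 1.04. Of 5 endothelial markers, 4 were lower at 30 days (median -0.89), while Fzd4 was higher. Of 5 suprabasal keratinocyte markers 3 were lower and 1 higher, and of 4 adipocyte markers 2 were lower. Their part in the differences of the Wnt genes was not tested.

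Within the cultures, a few ligands differed between strains. Comparing 2 mixed-strain with 3 FVB cultures, 5 member probe sets were called (8.62%), 3 higher and 2 lower, and 4 of them were ligands. The background was 9.22% called, 3.91% higher and 5.30% lower, so the members' share was near it. Wnt7a was higher in mixed-strain cultures (8.07 and 7.92) than in FVB cultures (7.34, 6.89 and 7.20), by 0.85 ± 0.13 (SE, adjusted p = 0.00139). The dimmer Wnt7b probe set was higher by 0.92 ± 0.15 (6.96 and 6.95 against 6.24, 6.10 and 5.76, adjusted p = 0.00253), and the dimmer Wnt5a probe set by 0.80 (adjusted p = 0.0138). Wnt4 (-0.79 ± 0.15, adjusted p = 0.00539) and Axin2 (-0.52 ± 0.14, adjusted p = 0.0336) were lower in mixed-strain cultures. The brighter probe sets of Wnt7b (0.44) and Wnt5a (0.39) were not called, at adjusted p of 0.0787 and 0.125.

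These strain differences rest on few arrays. Without culture 1 or without culture 2, 2 probe sets were called (1.88% and 2.63% of all probe sets), without 30-day replicate 1, which changes only the shared spread, 8 were called (14.6%), and with arrays averaged none passed (0.155% of all probe sets). Centring on epithelial junction genes gave 3 higher and 1 lower, where 1.94% of all probe sets were higher and 1.60% lower. So few calls do not show a change in the balance of directions. The 4 melanocyte markers were all higher in mixed-strain cultures, where they averaged 9.66 and 9.81, than in FVB ones (7.58 to 7.76), and suprabasal keratinocyte markers averaged 6.78 and 6.80 against 7.61 to 7.81, with 2 of 5 lower. Their part was not tested.

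Of 95 other Wnt pathway genes listed, 80 were measured. Each was read by its brightest probe set. In culture 34 were lower and 10 higher than in skin, or 55.0%. With 1 probe set a gene, 47.0% of all genes were called, 22.4% lower and 24.6% higher. Over all probe sets, dim and repeated ones included, 42.5% were called, 18.3% lower and 24.3% higher. The list's median difference was -0.20. Feedback and target genes accounted for 9 of those lower and 0 higher, out of 14, and nuclear factors likewise for 9 lower and 0 higher, out of 14. Co-receptors, R-spondin and receptor turnover genes gave 8 lower and 1 higher of 15, planar polarity genes 3 lower and 1 higher of 11, ligand secretion and glypican genes 3 and 3 of 7, and cytoplasmic signalling genes 2 lower and 5 higher of 19. The list was drawn up with results of these data known.

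The lower genes with the largest differences were Bambi, a decoy receptor of BMP signalling that responds to Wnt, Tnfrsf19, a receptor of hair follicle cells, and Lgr5, a receptor for R-spondins and a stem cell marker. Bambi averaged 4.87 ± 0.11 (SD, n = 5) in cultures, 8.24 ± 0.13 (n = 2) in newborn and 9.05 ± 0.24 (n = 5) in 30-day skin, 13.7-fold lower in culture. Tnfrsf19 was 11.7-fold and Lgr5 5.83-fold lower than skin. Porcn, the enzyme that attaches the lipid to Wnt proteins, was 3.70-fold higher in culture (1.89 ± 0.37, SE, adjusted p = 0.000801), followed by Senp2 (1.14), a SUMO protease, and Vangl1 (0.91), a planar polarity protein. Porcn also differed between cultures, with mixed-strain cultures 3.78-fold below FVB ones (adjusted p = 1.07e-05).

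With age, 5 of the 80 genes were higher and 8 lower at 30 days, or 16.2%. This was near the 15.8% of all genes called with 1 probe set a gene (5.91% higher and 9.84% lower). Msx2 (1.04), also 1 of the 7 hair matrix markers above, Bambi (0.81) and Chd8 (0.71) were higher. Gpc3, a glypican, fell by 1.92 ± 0.24 (SE, adjusted p = 0.000159), Twist1, a factor of mesenchymal cells, by 1.71 and Ctnnbip1, an inhibitor of beta-catenin, by 1.06. Between cultures, 2 were higher and 6 lower in mixed-strain ones, 8 of 80 in all. That share was near the 9.84% of all genes called with 1 probe set a gene (3.18% higher and 6.66% lower). Prickle1 (1.07) and Kremen1 (0.93) were higher, and Porcn, Sostdc1 (-1.48) and Apcdd1 (-0.91) had the largest differences downward.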

How the data were processed

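RNA of 12 samples was hybridised to 1 Affymetrix mouse array each. The deposited log2 values came from RMA, per the submitters' processing notes; which version was run is not given in the sources used here. RMA equalises the arrays' distributions before it summarises the probes, so a shift shared by most genes may not be seen. The summarised values kept a small offset, with array medians of 5.86 to 5.94 in cultures and 5.97 to 6.01 in skin. Groups came from the titles and strain from the labels, and 0 columns were left unused. Of 22690 probe sets, 64 controls were left out. In the platform annotation 20380 probe sets had 1 symbol, 691 had several and 1555 had none, and 20351 of those with 1 symbol matched RefSeq by gene identifier.

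The test was limma's two-sided moderated one (version 3.58.1, R 4.3.3, functions lmFit and eBayes) in 1 model with a mean per group, with Benjamini-Hochberg adjustment over 22626 probe sets and a threshold of 0.05. For the strain comparison the cultures had 1 mean per strain. Errors of differences are SEs and those of means SDs. Genes were described array by array where a probe set was called with a log2 difference of at least 1 in any comparison except that of strains, and up to 3 other pathway genes per direction were named by size of difference. The members, gene lists and marker lists were chosen with earlier results of these data known. Promoters come from RefSeq. Alternatives covered normalisation, centring, the dimmest 40% of probe sets, 1 probe set a gene, the variance model, array weights, the samples fitted, strain, the replicate number as a block and each array left out; averaging arrays that correlated above 0.99 and fits within a strain were chosen after seeing the data. The fit was tested on simulated data. Tables were made with pandas 2.3.3 and numpy 2.4.6 under Python 3.11.15, and drawings with matplotlib 3.10.9. The number of arrays limits the precision.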

Additional observations from a re-analysis of the deposited data

Results flagged for a closer look

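In 116 groups of 5 arrays, 1 for each member probe set in cultures and in 30-day skin, the highest or lowest array was checked for its gap to the others, and 8 stood apart. Chance alone gives about 1 in 20 such groups. In 30-day skin, replicate 1 was lowest for Fzd1 (5.65, next 6.78) and for the second Fzd6 probe set, 1448662_at (5.81, next 6.88). This array also stood apart in its actin control, as given above, and its part was not tested. Replicate 3 was lowest for the brighter Fzd6 probe set (8.14, next 8.48) and highest for the Fzd3 probe set 1421157_at (5.25, next 5.08), and replicate 4 was lowest for the Fzd2 probe set 1418533_s_at (7.13, next 7.36). In cultures, replicate 4 was lowest for Wnt9b (4.60, next 4.75) and for the Frzb probe set 1448424_at (4.0, next 4.29), and replicate 1 for Sfrp5 (5.81, next 6.08).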

How the results depend on the processing

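The 16 genes described array by array had 53 called differences in the 4 comparisons of cultures and skin. Over the alternatives, 1163 recomputed values kept direction and call, 56 kept the direction but missed the threshold, and 0 reversed. Many of these values could not reverse. The variance model, the choice of probe sets, fitting only the arrays compared and leaving out an uncompared array keep the difference itself. Fits within a strain repeat the values of strain as a covariate. The 53 differences were also picked because they were called in these data. Counts of called member probe sets were 41 for culture against skin, 32 against newborn skin, 38 against 30-day skin, 15 for age and 5 for strain. Leaving out the dimmest 40% of probe sets, which left 31 members, gave 26, 21, 24 and 8 for the first 4 (55.9%, 43.8%, 57.4% and 16.8% of all probe sets kept). Centring on epithelial junction genes gave 50 against newborn skin and 27 for age, while calls over all probe sets went from 32.3% to 70.3% and from 12.1% to 39.0%. Averaging similar arrays gave 20 against newborn skin, 2 for age and 0 for strain (15.2%, 1.24% and 0.155% of all). A threshold of 0.01 gave 8 for age and 3 for strain (5.68% and 3.37%), 1 probe set a gene gave 3 for strain (9.84%), and array weights gave 13 for strain (21.9%). Leaving out each array gave 37 to 42, 24 to 34, 36 to 38, 6 to 17 and 2 to 8 in the same order. Calls over all probe sets moved in these fits too, as given above for age and strain. The cause of these shifts was not tested, except that fewer probe sets or samples entered some fits. The main fit did not pair samples by replicate number. Deviations of same-numbered arrays from their group means correlated at -0.28 to 0.20 over 9 pairs. Groups are small, and deviations of the 2 newborn arrays mirror each other, so this check cannot exclude pairing. With the replicate block, 37, 27, 36 and 7 probe sets were called for the first 4 comparisons (37.2%, 25.9%, 39.8% and 7.62% of all). Fitting only the arrays compared gave no separate value for culture against skin, which uses all of them, and strain and the block were not fitted to the strain comparison. With 5, 2 and 5 arrays, differences near the spread of newborn skin were the least certain.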
